A study of Phyllostachys violascens with 16 samples.

Results

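The genes described here were at their highest after 2 days of cold storage in young shoots of Lei bamboo (Phyllostachys violascens), and lower before and after. Of 50936 genes in the deposited table, 15 met the rule. The rule asked for a mean FPKM at 2d of at least 10 that was also at least 4 times each of the means at 0d, 6d and 20d. FPKM, fragments per kilobase of transcript scaled to library size, is a level per length. The genes were chosen by their mean FPKM at 2d and by its ratio to the means at 0d, 6d and 20d. Their 2d values are therefore given as a description, with no test.

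The 16 libraries form 4 groups of 4 replicates, called 0d, 2d, 6d and 20d after the days of storage at 4 °C. Total RNA came from the middle 10 cm of shoots that were 30 to 40 cm high and had been packed in polyethylene bags at 60 to 70% humidity. Each repeat kept 30 shoots together and segments of 6 shoots were sampled from it, so every library is a pool. The labels give the 4 °C treatment for the 0d shoots too, and no shoots kept at another temperature were analysed here, so cold cannot be told apart from time since harvest or from packing. Whether same-numbered libraries came from the same 30 shoots is not stated.

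Lipoxygenases add oxygen to linoleic and linolenic acid, and the hydroperoxides they make are the starting point of oxylipins, a group that includes jasmonates and several leaf and wound volatiles. Bowman-Birk inhibitors block serine proteases such as trypsin, and the maize gene WIP1 is known as one whose transcript accumulates after wounding. Sesquiterpene synthases such as germacrene D synthase turn farnesyl diphosphate into volatile hydrocarbons, beta-cyanoalanine synthase detoxifies the cyanide released when ethylene is made, and ornithine decarboxylase makes putrescine, the first polyamine. Gene names below are those of best database hits in the deposited table and say which described protein is closest, not what the bamboo gene does.

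Deposited counts per library totalled 51.7 to 64.9 M. The summed FPKM of 39 photosynthesis genes was 959 to 973 at 0d, 416 to 441 at 2d, 388 to 412 at 6d and 194 to 225 at 20d, with 0, 0, 1 and 4 of these genes at 0 at those times. The summed FPKM of 23 cellulose synthase genes was 953 to 964 at 0d, 408 to 414 at 2d, 359 to 378 at 6d and 434 to 449 at 20d. For 64 laccase and class III peroxidase genes the sum was 1593 to 1642 at 0d, 1606 to 1684 at 2d, 1543 to 1761 at 6d and 3293 to 3380 at 20d. For 125 phenylpropanoid and monolignol genes it was 7196 to 7279 at 0d, 9251 to 9330 at 2d, 7365 to 7475 at 6d and 4653 to 4741 at 20d, although 20 of these 125 genes had their own highest mean at 2d and the median log2 change at 2d against 0d was -0.20. PH02Gene34735 of this last list, described as anthranilate O-methyltransferase 2, had means of 435 FPKM at 0d, 2643 FPKM at 2d, 2690 FPKM at 6d and 579 FPKM at 20d. The rise of the sum at 2d is thus no larger than the rise of that gene, and does not show a rise of the list as a whole. None of the 15 genes belongs to these lists. The part of these shifts in the values below was not tested. In whole segments, fewer cells of a type and less RNA per cell cannot be told apart.

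The 15 genes were 3 lipoxygenases, 3 germacrene D synthases, a Bowman-Birk inhibitor, a pathogenesis-related protein 1, a beta-cyanoalanine synthase, an ornithine decarboxylase, a transcription factor, an auxin carrier, a nudix hydrolase and 2 genes without an informative name. Their mean levels at 2d spanned 21.9 to 1982 FPKM with a median of 76.7 FPKM. The ratio of the 2d mean to the highest other mean spanned 4.22 to 8.32 with a median of 4.63. In each of the 15, the lowest 2d library lay above the highest library of any other time, by 1.94 to 7.78 times. A rule on the same means largely builds in such a gap, and its share over all tested genes was not counted. Replicates at 2d were close, with a median coefficient of variation of 3.38%. All 15 were among the 24944 tested genes, whose mean FPKM over the 16 libraries reached 1, so the rule took 0.0601% of these. Of the same 24944 genes, 14.1% had their highest mean at 2d, and in 0.794% that mean was at least 2 times each other mean.

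**Figure D1:**
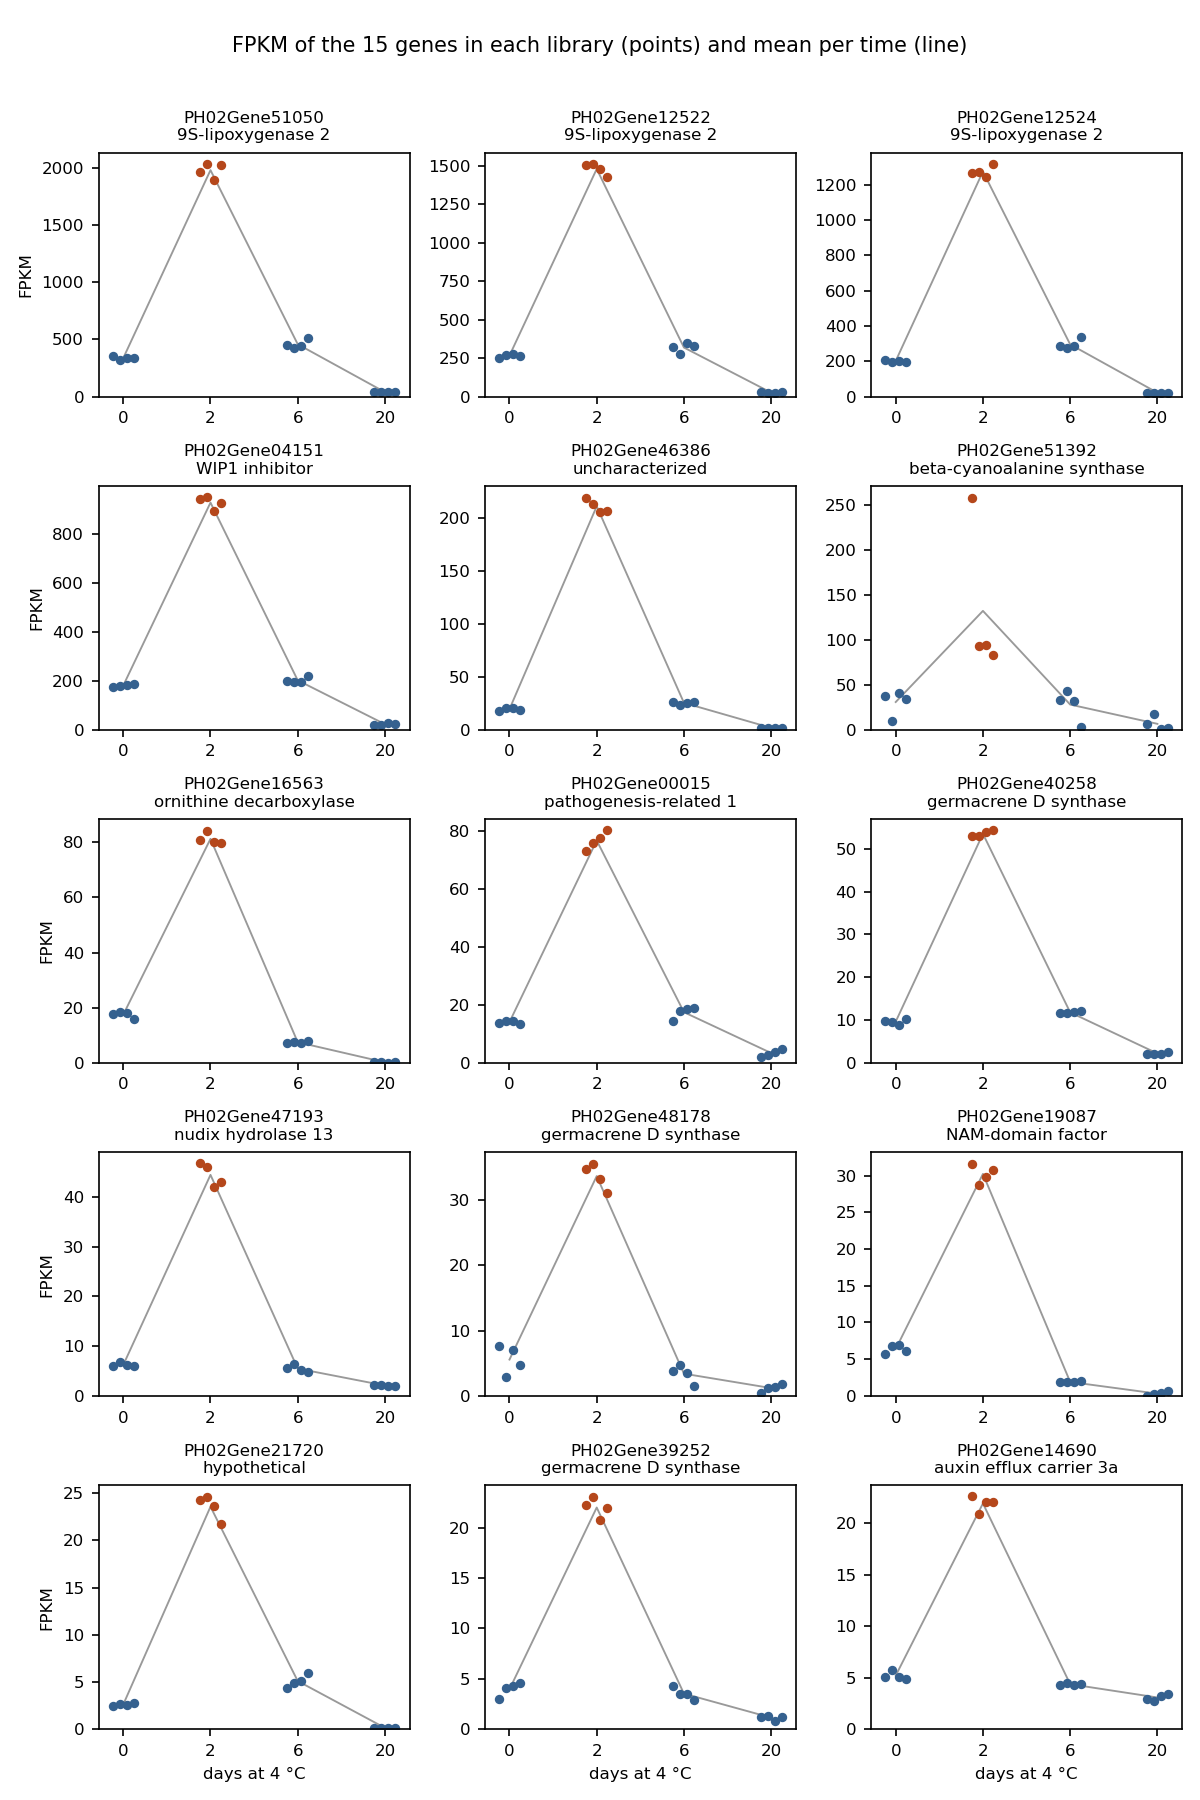
FPKM of each of the 15 genes in every library at 0, 2, 6 and 20 days (linear axes from 0, set separately for each gene, times evenly spaced, 1 point per library, n = 4 per time, line through the means). In every panel the 4 libraries at 2d lie above all others, which the rule makes likely, and the 20d mean is the lowest of the 4 means.

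The rule did not fix the order of the other 3 times. In all 15 genes the lowest mean was at 20d. The share of all tested genes with their lowest mean at that time was not counted. Under total-count scaling the median log2 change of all tested genes was -0.30 at 20d against 0d. In 8 genes the order of means was 2d, 6d, 0d, 20d from high to low, and in 7 it was 2d, 0d, 6d, 20d. Together the 15 genes took 0.323% of a library's deposited counts at 0d, with 1.91% at 2d, 0.421% at 6d and then 0.0362% at 20d.

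The 3 lipoxygenases carried most of that share. All 3 are described as linoleate 9S-lipoxygenase 2 and carry the enzyme number EC:1.13.11.58, that of linoleate 9S-lipoxygenase. Only their GO terms name linoleate 13S-lipoxygenase activity, and the position at which they oxidise linoleate was not measured. PH02Gene51050 (scaffold 13545, 428 to 4637, the only gene on that scaffold) had 353, 316, 339 and 337 FPKM at 0d, 1969, 2033, 1898 and 2027 FPKM at 2d, 449, 423, 443 and 516 FPKM at 6d, and 39.0, 38.0, 37.8 and 38.7 FPKM at 20d. No library of one time overlapped those of another. PH02Gene12522 (scaffold 21, 17162146 to 17165839) had 254, 270, 276 and 267 FPKM at 0d, 1508, 1510, 1478 and 1425 FPKM at 2d, 321, 276, 349 and 328 FPKM at 6d, and 28.9, 21.3, 20.5 and 30.8 FPKM at 20d. PH02Gene12524 (scaffold 21, 17312985 to 17317223) had 209, 199, 201 and 198 FPKM at 0d, 1271, 1272, 1245 and 1317 FPKM at 2d, 288, 274, 284 and 337 FPKM at 6d, and 21.5, 21.6, 21.0 and 22.0 FPKM at 20d. The groups of PH02Gene12524 did not overlap, and in PH02Gene12522 the lowest 6d library exceeded the highest 0d library by less than 1 FPKM.

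By mean FPKM, PH02Gene51050 ranked 94 among all genes at 0d, stood at 3 at 2d and later at 49 at 6d and 2957 at 20d. PH02Gene12522 ranked 6 and PH02Gene12524 ranked 15 at 2d. The 3 genes took 0.289 ± 0.00608% of the counts at 0d, with 1.72 ± 0.0327% at 2d, then 0.386 ± 0.0317% at 6d and 0.0309 ± 0.00186% at 20d (SD, n = 4 each). PH02Gene12522 and PH02Gene12524 lie 147.1 kb apart on opposite strands, with 1 gene between them, an F-box/kelch-repeat gene with a mean of 0 FPKM at every time.

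Across the 16 libraries the level of PH02Gene12524 relative to PH02Gene51050 stayed between 0.552 and 0.656, and that of PH02Gene12522 relative to PH02Gene51050 between 0.542 and 0.852. How the authors' counting treated reads that match more than 1 of these lipoxygenase genes is not given in the sources used here, so the split among the 3 is uncertain. Their sum is less exposed to that split and was 804 ± 14.7 FPKM at 0d, 4738 ± 82.9 FPKM at 2d, 1072 ± 86.0 FPKM at 6d and 85.3 ± 6.04 FPKM at 20d.

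Other lipoxygenase genes behaved in more than 1 way. They were looked up after the 3 members had been seen. Of 9 others tested, 4 had their highest mean at 2d, where 14.1% of all tested genes did. Against 0d, 2 of the 9 were called higher at 2d and 3 were called lower, against a background of 13.1% higher and 18.1% lower over all genes tested. A call required a change of at least 1 in size on the log2 scale together with an adjusted p below 0.05, by edgeR's quasi-likelihood test with Benjamini-Hochberg adjustment over all genes tested. PH02Gene18247, a linoleate 9S-lipoxygenase 4, rose to 167 ± 4.68 FPKM at 2d, against 78.4 ± 2.08 FPKM at 0d (log2 change 1.34, SE 0.03, n = 4, edgeR adjusted p = 1.03e-23). It was still at 119 ± 2.79 FPKM at 20d. PH02Gene27270, a linoleate 9S-lipoxygenase 1, reached 9.20 ± 1.20 FPKM at 2d and missed the rule only by its level. Lipoxygenase 2.3 (PH02Gene10309), described as chloroplastic, fell to 0.153 ± 0.0371 FPKM at 2d, against 7.85 ± 0.641 FPKM at 0d (log2 change -5.39, SE 0.21, n = 4, edgeR adjusted p = 2.39e-16). A gene that shares the name linoleate 9S-lipoxygenase 2 with the 3 members, PH02Gene48902, fell to 0.908 ± 0.231 FPKM at 2d, against 13.1 ± 0.691 FPKM at 0d.

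A list of jasmonate genes, which also takes lipoxygenases and so repeats some of the genes above, held 44 tested genes that are not members. Of these, 3 were called higher and 22 lower at 2d against 0d, beside 13.1% higher and 18.1% lower over all tested genes. Their median log2 change was -0.78, and that of all genes tested was -0.004. PH02Gene18247 was the called gene of this list with the smallest adjusted p among those higher at 2d.

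Among the defence proteins, the Bowman-Birk inhibitor WIP1 gene PH02Gene04151 (scaffold 16, 118598454 to 118600143) was the most abundant. It had 175, 178, 184 and 186 FPKM at 0d, 944, 951, 894 and 929 FPKM at 2d, 200, 196, 193 and 219 FPKM at 6d, and 20.0, 20.5, 26.5 and 22.3 FPKM at 20d. The 4 times did not overlap, although 0d and 6d were close. The interval listed for it overlaps that of the next gene by a few bases, and that neighbour, a signal peptidase subunit gene (PH02Gene04152), was between 1.36 and 6.46 FPKM in its 4 time means. The other 6 Bowman-Birk genes tested did not have their highest mean at 2d in any case. Their 2d means were between 0.367 and 4.40 FPKM.

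PH02Gene00015 (scaffold 15, 50412376 to 50413270) is described as pathogenesis-related protein 1, but its GO terms name abscisic acid binding and protein phosphatase inhibition, which are roles of abscisic acid receptors and related PR-10 type proteins. It had 13.7, 14.6, 14.4 and 13.5 FPKM at 0d, 73.1, 75.9, 77.5 and 80.1 FPKM at 2d, 14.4, 18.0, 18.6 and 18.8 FPKM at 6d, and 2.18, 2.77, 3.89 and 4.65 FPKM at 20d. Only 0d and 6d overlapped. Whether the other 2 tested genes picked by a PR1 name are of the same protein family as PH02Gene00015 is not settled by the names. Looked up after the member had been seen, they were highest at 20d, with means of 113 ± 7.75 FPKM for PH02Gene19056 and 63.7 ± 3.85 FPKM for PH02Gene38178. At 2d these genes averaged 4.67 ± 1.38 and 1.31 ± 0.487 FPKM, against 1.19 ± 0.220 and 0.103 ± 0.130 FPKM at 0d. Both were called higher at 2d against 0d, beside 13.1% of all tested genes. The log2 changes were 2.21 (SE 0.19) and 3.78 (SE 0.53), with edgeR adjusted p of 5.193e-09 and 1.518e-05 (n = 4).

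The list of pathogenesis-related proteins, chitinases and protease inhibitors held 53 further tested genes, of which 16 were called higher and 15 lower at 2d against 0d, beside 13.1% and 18.1% of all tested genes. Their median log2 change was -0.11. PH02Gene14760, a pathogenesis-related protein, had the smallest adjusted p among those higher. It rose to 58.3 ± 4.93 FPKM at 2d, against 3.87 ± 0.383 FPKM at 0d (log2 change 4.16, SE 0.10, n = 4, edgeR adjusted p = 1.263e-21). Its mean at 6d was 22.4 ± 2.10 FPKM, too high for the rule.

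The 3 germacrene D synthases all lie on scaffold 23. PH02Gene40258 (78982653 to 78984816) had 9.74, 9.64, 8.86 and 10.2 FPKM at 0d, 52.9, 52.9, 54.0 and 54.3 FPKM at 2d, 11.6, 11.6, 11.8 and 12.1 FPKM at 6d, and 2.10, 2.08, 2.04 and 2.50 FPKM at 20d. PH02Gene48178 (79110037 to 79111915) had 7.73, 2.84, 7.04 and 4.68 FPKM at 0d, 34.8, 35.6, 33.2 and 31.1 FPKM at 2d, 3.83, 4.78, 3.56 and 1.49 FPKM at 6d, and 0.457, 1.23, 1.34 and 1.80 FPKM at 20d. PH02Gene39252 (79392721 to 79396895) had 2.94, 4.05, 4.24 and 4.56 FPKM at 0d, 22.2, 23.1, 20.7 and 21.9 FPKM at 2d, 4.23, 3.44, 3.51 and 2.88 FPKM at 6d, and 1.19, 1.30, 0.846 and 1.20 FPKM at 20d. The 2d libraries of each gene stood apart from the rest. In PH02Gene48178 and PH02Gene39252 the libraries at 0d and 6d overlapped, and those of PH02Gene48178 also overlapped between 6d and 20d. All 3 genes carry the enzyme number EC:4.2.3.75, but none has a GO term that names germacrene D. The GO terms name barbatene, thujopsene and chamigrene synthases in PH02Gene40258, delta-cadinene synthase in PH02Gene48178 and sesquiterpene synthase in PH02Gene39252. Their products were not measured.

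Other genes of the same name also had their highest mean at 2d. Of 10 germacrene D synthase genes tested, 9 are on scaffold 23, and 8 of them, the 3 members included, lie within 0.6949 Mb (78702020 to 79396895). The other 7 genes, looked up after the members had been seen, all had their highest mean at 2d, where 14.1% of all tested genes did. All 7 were called higher at 2d against 0d, with log2 changes of 1.12 to 2.12, where 13.1% of all tested genes were called higher. The most abundant, PH02Gene50979, rose to 279 ± 17.4 FPKM at 2d, against 98.0 ± 5.22 FPKM at 0d (log2 change 1.76, SE 0.08, n = 4, edgeR adjusted p = 1.813e-12). Its ratio of the 2d mean to the highest other mean was 2.85, under the limit of 4. The lowest ratio, 1.15, was that of PH02Gene40249, with 43.3 ± 8.35 FPKM at 2d and 37.6 ± 1.51 FPKM at 20d, and its libraries at these times overlapped.

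The 10 genes together had 248 ± 7.44 FPKM at 0d, 777 ± 9.43 FPKM at 2d, 216 ± 8.78 FPKM at 6d and 100.4 ± 3.004 FPKM at 20d, a 2d mean 3.14 times the highest other. The members' part of the summed level was 7.73% at 0d, with 14.1% at 2d, then 8.69% at 6d and 4.50% at 20d. The rule chose the members by a high ratio at 2d, so it largely builds in the peak of this part at that time. How reads were divided among genes of this name is not given in the sources used here, so the split among them is uncertain, and the sum is less exposed to it. The list of other terpenoid genes, whose pattern does not take germacrene D synthase, held 47 tested genes. Of these 9 were called higher and 12 lower at 2d against 0d, beside 13.1% and 18.1% of all tested genes, with a median log2 change of -0.09.

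**Figure D2:**
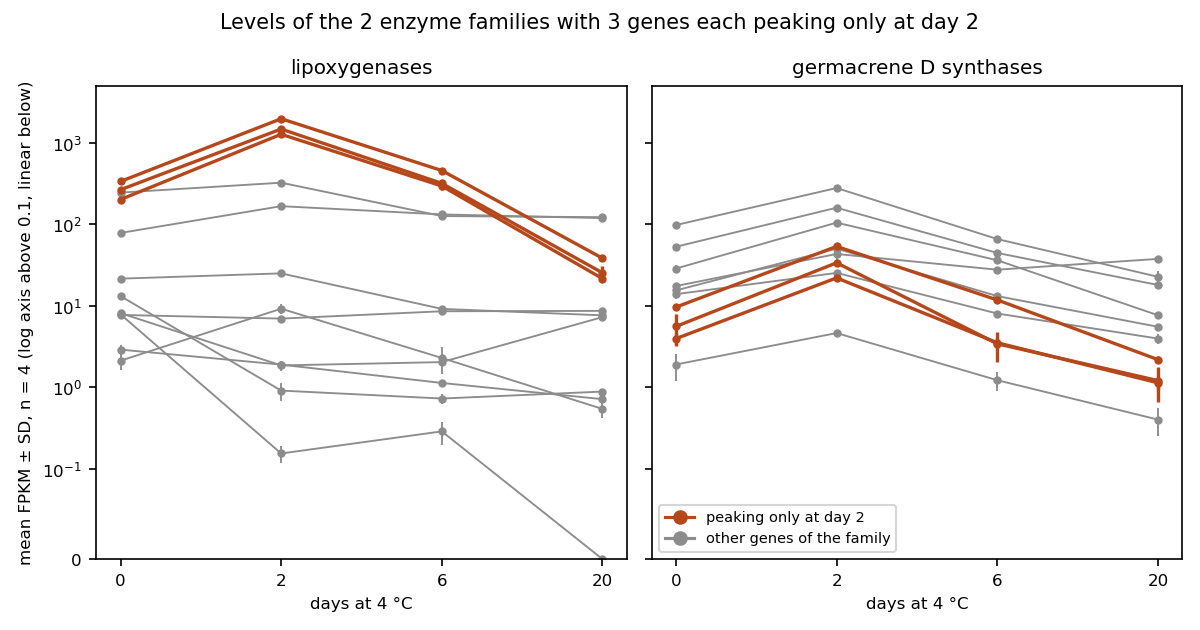
Mean FPKM at 0, 2, 6 and 20 days (± SD, n = 4 libraries, log axis above 0.1 and linear below, times evenly spaced) for the tested lipoxygenase and germacrene D synthase genes, with the 3 members of each in orange and the others in grey. The rule gives the members their highest mean at 2d. Of the others, all 7 germacrene D synthases and 4 of the 9 lipoxygenases also have it there, where 14.1% of all tested genes do.

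Beta-cyanoalanine synthase PH02Gene51392 (scaffold 19474, 170 to 2152, the only gene on that scaffold) was the least even member. It had 37.5, 9.57, 41.3 and 34.5 FPKM at 0d, 258, 92.5, 94.1 and 83.4 FPKM at 2d, 33.3, 43.1, 32.3 and 2.87 FPKM at 6d, and 5.94, 17.5, 0.728 and 1.74 FPKM at 20d. Replicate 1 at 2d was far above the other 3, and 1 library each at 0d and 6d was far below. Its coefficient of variation at 2d was 63.7%. Without replicate 1 of 2d it no longer met the rule, nor without replicate 2 of 0d, without replicate 4 of 6d or when medians replaced means.

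There were 5 tested genes of the same name, and their summed level was more even than that of the member. It was 255 ± 15.4 FPKM at 0d, 656 ± 71.9 FPKM at 2d, 285 ± 17.0 FPKM at 6d and 125 ± 2.91 FPKM at 20d. The coefficient of variation of the sum at 2d was 11.0%, and the 2d mean was 2.30 times the highest other, which would not meet the rule. Of the other 4, PH02Gene28865 had a ratio of 3.55 and PH02Gene48948, the most abundant, 1.82. How reads that match several genes of this name were counted is not given in the sources used here, so the level of PH02Gene51392 alone is uncertain.

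**Figure D3:**
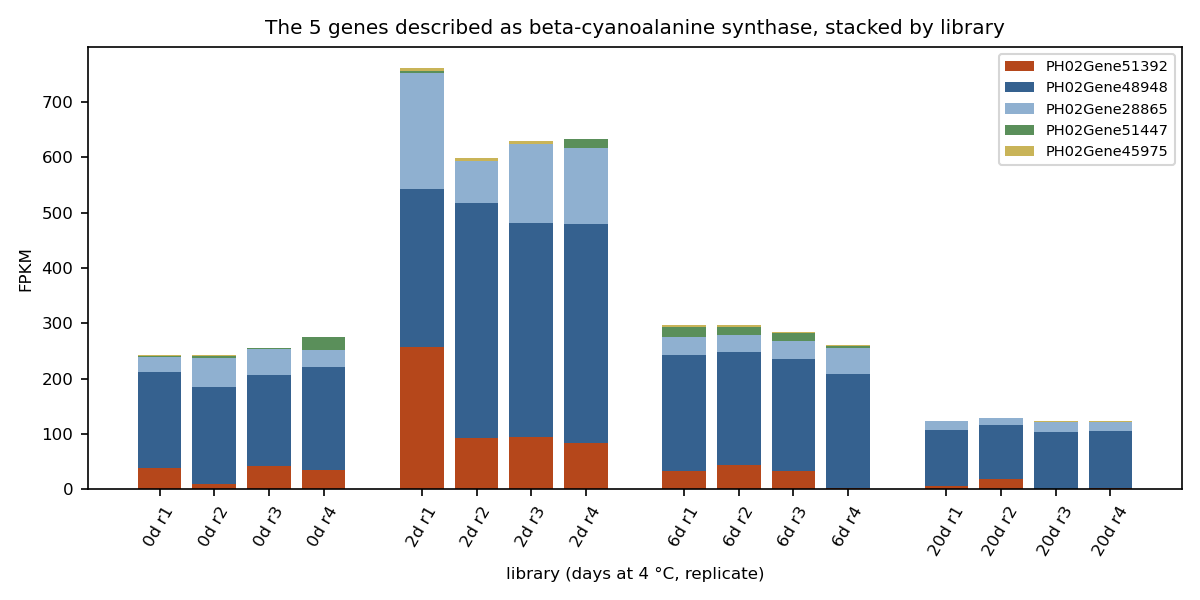
FPKM in each of the 16 libraries of the 5 tested genes described as beta-cyanoalanine synthase, stacked so that a bar is their sum, with PH02Gene51392 at the bottom. That gene reaches 258 FPKM in 1 library at 2d against 83.4 to 94.1 in the other 3, while the sum lies between 599.5 and 762 FPKM in all 4.

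Ethylene synthesis releases the cyanide that beta-cyanoalanine synthase removes. No ACC oxidase, the enzyme of that step, was a member. The 9 tested were picked by that name, and some are described only as homologs. PH02Gene22088 came near with means of 90.8 ± 2.61 FPKM at 0d, 324 ± 14.1 FPKM at 2d, 44.5 ± 3.27 FPKM at 6d and 1.63 ± 0.377 FPKM at 20d, a ratio of 3.57. PH02Gene22087 had 33.7 ± 2.23, 122 ± 1.23, 38.2 ± 2.98 and 0.672 ± 0.101 FPKM at the same times, a ratio of 3.20. Both were called higher at 2d against 0d, as was 1 other of the 9, PH02Gene41696, described as a homolog. The call was lower in 2, beside 13.1% higher and 18.1% lower over all tested genes. Of these 2, PH02Gene21671, described as an ACC oxidase, fell to 2.63 ± 0.436 FPKM at 2d, against 37.1 ± 2.11 FPKM at 0d (log2 change -3.56, SE 0.10, n = 4, edgeR adjusted p = 1.196e-20). These genes were looked up after the members had been seen. In a list for ethylene with 22 tested genes, 4 were called higher and 2 lower at 2d against 0d, beside 13.1% and 18.1% of all tested genes, with a median log2 change of 0.18. EIN3-binding F-box protein 1 (PH02Gene13936), which in Arabidopsis targets a central ethylene transcription factor for degradation, rose to 38.0 ± 0.851 FPKM at 2d, against 13.1 ± 0.459 FPKM at 0d (log2 change 1.79, SE 0.04, n = 4, edgeR adjusted p = 1.544e-23).

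Ornithine decarboxylase PH02Gene16563 (scaffold 17, 55940229 to 55941455) had the widest range of means of any member, with a 2d mean 464 times its 20d mean. It had 17.7, 18.4, 18.0 and 15.8 FPKM at 0d, 80.9, 84.2, 80.3 and 79.6 FPKM at 2d, 7.14, 7.54, 7.32 and 7.94 FPKM at 6d, and 0.178, 0.195, 0.0485 and 0.279 FPKM at 20d. No libraries of different times overlapped. At 20d its deposited counts were 12, 16, 4 and 20.

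Other genes of polyamine synthesis differed in time course, again looked up after the member had been seen. Among 8 such genes, the call at 2d against 0d was higher in 2 and lower in 1, beside 13.1% and 18.1% of all tested genes. S-adenosylmethionine decarboxylase PH02Gene06665, which supplies the aminopropyl groups of spermidine and spermine, rose to 1637 ± 23.6 FPKM at 2d, against 879 ± 7.71 FPKM at 0d (log2 change 1.15, SE 0.02, n = 4, edgeR adjusted p = 1.066e-25). A second such gene, PH02Gene30308, was highest at 6d, with 103 ± 2.33 FPKM at 2d and 137 ± 4.08 FPKM at 0d (log2 change of TMM-scaled counts -0.17, SE 0.03, under the fold needed for a call). Spermine synthase PH02Gene17027 rose to 26.4 ± 1.58 FPKM at 2d, against 6.26 ± 0.326 FPKM at 0d (log2 change 2.33, SE 0.12, n = 4, edgeR adjusted p = 3.92e-14). Arginine decarboxylase, the other plant route to putrescine, was highest at 20d in PH02Gene14479, with means of 8.42 ± 0.437 FPKM at 0d, 12.5 ± 0.698 FPKM at 2d, 33.3 ± 2.49 FPKM at 6d and 74.7 ± 0.662 FPKM at 20d.

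Among the regulators and carriers, PH02Gene19087 (scaffold 5, 45708745 to 45712050) is described only by its NAM domain, the DNA-binding domain of NAC transcription factors. It had 5.77, 6.78, 6.90 and 6.09 FPKM at 0d, 31.6, 28.7, 29.8 and 30.8 FPKM at 2d, 1.84, 1.85, 1.92 and 2.01 FPKM at 6d, and 0, 0.258, 0.352 and 0.632 FPKM at 20d. Its groups did not overlap, and its deposited counts at 20d were 0, 24, 32 and 50. Of 77 other NAC and NAM genes tested, 11 had their highest mean at 2d, where 14.1% of all tested genes did. At 2d against 0d, 26 of the 77 were called higher and 19 lower, beside 13.1% and 18.1% of all tested genes. NAC transcription factor 29-like (PH02Gene19528) had the smallest adjusted p among NAC genes called higher, at 371 ± 4.58 FPKM at 2d and 72.5 ± 1.97 FPKM at 0d (log2 change 2.61, SE 0.02, n = 4, edgeR adjusted p = 2.789e-31). It did not decline as the member did and was at 316 ± 2.81 FPKM at 20d.

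Auxin efflux carrier 3a, PH02Gene14690 (scaffold 16, 51790710 to 51794844), belongs to the PIN family that moves auxin out of cells. It lay closest to the fold limit from inside, with a ratio of 4.22. It had 5.06, 5.73, 5.08 and 4.90 FPKM at 0d, 22.7, 20.9, 22.1 and 22.0 FPKM at 2d, 4.27, 4.48, 4.30 and 4.40 FPKM at 6d, and 2.91, 2.75, 3.25 and 3.36 FPKM at 20d. The groups did not overlap, but the 3 times other than 2d were close. A second gene with the same description, PH02Gene30544, went the other way at 2d. It fell to 4.50 ± 0.373 FPKM at 2d, against 17.7 ± 0.251 FPKM at 0d (log2 change -1.73, SE 0.07, n = 4, edgeR adjusted p = 8.411e-17), and was at 4.41 ± 0.436 FPKM at 6d and 4.29 ± 0.240 FPKM at 20d. Of 91 further tested auxin genes, 17 were higher and 22 lower by the call at 2d against 0d, beside 13.1% and 18.1% of all tested genes, with a median log2 change of -0.05. Auxin-responsive protein IAA18-like (PH02Gene24834), of a family of auxin response repressors, rose to 121 ± 0.679 FPKM at 2d, against 45.3 ± 0.323 FPKM at 0d (log2 change 1.66, SE 0.02, n = 4, edgeR adjusted p = 2.431e-27).

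Nudix hydrolases split nucleoside diphosphates linked to another group. Nudix hydrolase 13, PH02Gene47193 (scaffold 20, 2184475 to 2187950), had 5.92, 6.80, 6.13 and 6.03 FPKM at 0d, 46.7, 45.9, 42.0 and 43.0 FPKM at 2d, 5.59, 6.40, 5.23 and 4.76 FPKM at 6d, and 2.15, 2.20, 2.02 and 1.98 FPKM at 20d. Its ratio of 7.14 was the highest among members with an informative name, and 0d and 6d overlapped. Another gene of that description, PH02Gene37461, had means of 1.91, 1.66, 12.3 and 12.3 FPKM at 0d, 2d, 6d and 20d, with libraries at 0d and 2d that overlapped (log2 change 0.06 at 2d against 0d, SE 0.15, not called). Of 19 other nudix hydrolase genes tested, 4 had their highest mean at 2d, where 14.1% of all tested genes did. At 2d against 0d, 4 of the 19 were called higher and 4 lower, beside 13.1% and 18.1% of all tested genes.

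The 2 remaining members lack an informative name. PH02Gene46386 (scaffold 6, 19490439 to 19492833), an uncharacterized protein with GO terms for protein serine/threonine kinase activity and intracellular signalling, had the highest ratio of all members, 8.32. It had 18.1, 20.8, 20.6 and 18.2 FPKM at 0d, 219, 213, 205 and 206 FPKM at 2d, 26.3, 23.8, 24.9 and 26.4 FPKM at 6d, and 1.40, 1.68, 1.93 and 1.76 FPKM at 20d. PH02Gene21720 (scaffold 12, 30406321 to 30409493), a hypothetical protein with a GO term for the extracellular region, had 2.46, 2.70, 2.51 and 2.75 FPKM at 0d, 24.3, 24.6, 23.7 and 21.7 FPKM at 2d, 4.39, 4.93, 5.09 and 5.95 FPKM at 6d, and 0.118, 0.162, 0.0976 and 0.127 FPKM at 20d. The groups of both genes did not overlap.

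The limits of the rule passed close to some genes. Just outside the fold limit were the sugar transporter SWEET1b (PH02Gene29130, ratio 3.83), at 63.6 FPKM at 2d, and a CTP synthase (PH02Gene17339, ratio 3.81), at 51.5 FPKM. Just inside were PH02Gene14690 at 4.22 and PH02Gene51392 at 4.30. By level, no gene past the fold limit lay between 9.20 FPKM (PH02Gene27270) and 21.9 FPKM (PH02Gene14690). A limit of 3 in place of 4 gave 36 genes, and a limit of 5 gave 4 (PH02Gene46386, PH02Gene47193, PH02Gene48178 and PH02Gene39252).

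**Figure D4:**
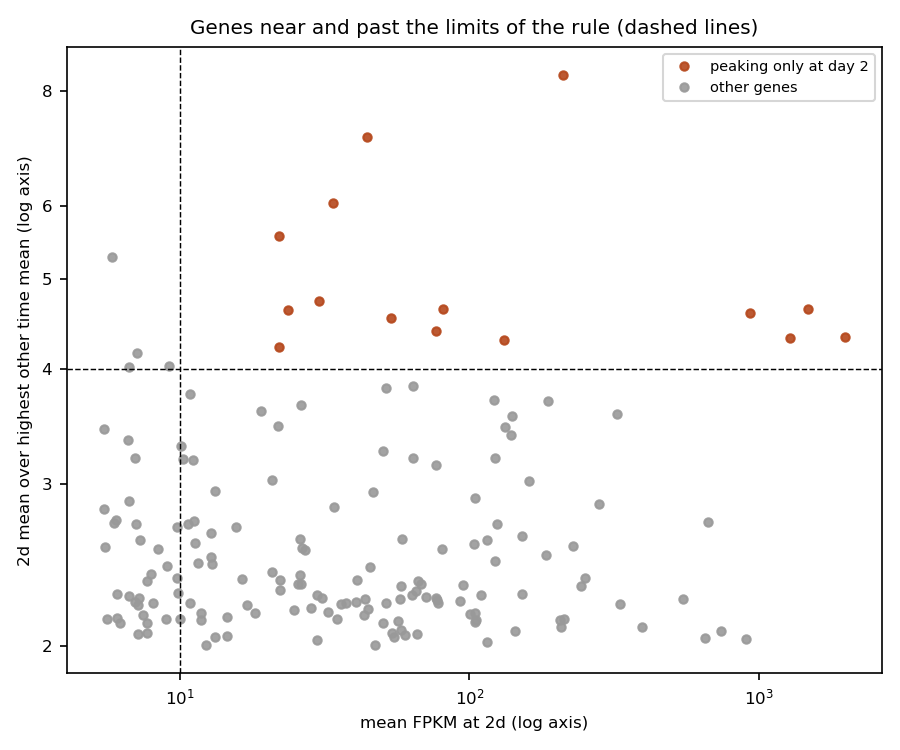
Mean FPKM at 2d against the ratio of the 2d mean to the highest other mean (both log axes) for the 169 genes with a ratio of at least 2 and a 2d mean of at least 5 FPKM, with the rule's limits of 10 FPKM and 4 as lines and the 15 members marked. The 3 lipoxygenases and WIP1 stand out by level, and PH02Gene46386 and PH02Gene47193 by ratio.

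The next comparison asked whether these genes were back at their 0d level at 6d. The rule caps both means, since the 2d mean is at least 4 times each, and does not rank them. Of the 15, 1 was called higher and 2 lower at 6d against 0d, where 16.8% of all tested genes were called higher and 21.6% lower. PH02Gene21720 rose to 5.09 ± 0.646 FPKM at 6d, against 2.61 ± 0.141 FPKM at 0d (log2 change 1.14, SE 0.09, n = 4, edgeR adjusted p = 1.015e-11). Ornithine decarboxylase PH02Gene16563 fell to 7.48 ± 0.346 FPKM at 6d, against 17.5 ± 1.16 FPKM at 0d (log2 change -1.05, SE 0.08, n = 4, edgeR adjusted p = 1.286e-11). Transcripts of the NAM-domain gene PH02Gene19087 fell to 1.91 ± 0.0792 FPKM at 6d, against 6.39 ± 0.543 FPKM at 0d (log2 change -1.57, SE 0.25, n = 4, edgeR adjusted p = 5.827e-05). Of these calls, that of PH02Gene21720 was lost when libraries were scaled by their total counts (log2 change 0.95), and that of PH02Gene16563 without a filter on low values (-0.98). Under limma on log2(FPKM + 5) each of these calls was lost (0.41 in PH02Gene21720, -0.85 in PH02Gene16563 and -0.72 in PH02Gene19087). The call of PH02Gene21720 was also lost under limma on log2(FPKM + 1) (0.75).

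The other 12 changed by less than the limit of 1 on the log2 scale. The 3 lipoxygenases were above 0d by log2 changes of 0.62, 0.43 and 0.73 in PH02Gene51050, PH02Gene12522 and PH02Gene12524, with edgeR adjusted p of 8.81e-08, 0.00293 and 8.57e-09 (n = 4), all below the limit of 1 on size. WIP1 was above 0d by 0.34 (SE 0.06, n = 4, edgeR adjusted p = 0.000176) and PH02Gene46386 by 0.56 (SE 0.05, n = 4, edgeR adjusted p = 3.10e-09). For PH02Gene39252, PH02Gene47193 and PH02Gene51392 the change was within 0.03 of 0 and its sign depended on the setting. The median log2 change of the 15 was 0.34, and that of all genes tested was -0.02. By an edgeR adjusted p below 0.05 alone, without the limit on size, 8 of the 15 were higher and 2 lower. The share of all tested genes passing that limit alone was not counted.

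The edgeR changes are on counts scaled by TMM, which sets most genes near no change, while FPKM uses library totals. Scaling by total counts instead moved the median log2 change of all tested genes to -0.26 at 2d, -0.21 at 6d and -0.30 at 20d, each against 0d, and to -0.13 at 20d against 6d. The share of calls that were higher then became 28.5% in place of 42.0% at 2d, 33.6% in place of 43.7% at 6d, 31.0% in place of 44.3% at 20d against 0d and 38.9% in place of 47.2% at 20d against 6d.

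At 20d nearly all of these genes were below their 0d level. Of the 15, 13 were called lower and 0 higher at 20d against 0d, where 24.5% of all tested genes were called lower and 19.5% higher. Their median log2 change was -2.70, and that of all genes tested was 0.02. The change spanned -6.27 in ornithine decarboxylase to -0.44 in the auxin carrier. The rule puts the same cap on the 0d and 20d means.

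Ornithine decarboxylase PH02Gene16563 fell to 0.175 ± 0.0953 FPKM at 20d, against 17.5 ± 1.16 FPKM at 0d, 99.8 times lower on the FPKM scale (log2 change -6.27, SE 0.14, n = 4, edgeR adjusted p = 2.499e-22). PH02Gene46386 fell to 1.69 ± 0.225 FPKM at 20d, against 19.4 ± 1.499 FPKM at 0d (log2 change -3.19, SE 0.07, n = 4, edgeR adjusted p = 4.069e-20). PH02Gene21720 fell to 0.126 ± 0.0267 FPKM at 20d, against 2.61 ± 0.141 FPKM at 0d (log2 change -3.99, SE 0.14, n = 4, edgeR adjusted p = 9.683e-19). Its 20d level rests on deposited counts of 12, 19, 12 and 13.

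The lipoxygenases fell by similar amounts. PH02Gene51050 was at 38.4 ± 0.545 FPKM at 20d, against 336 ± 15.1 FPKM at 0d, 8.76 times lower by mean FPKM (TMM-scaled log2 change -2.82, SE 0.06). On the same FPKM scale PH02Gene12522 was 10.5 times lower and PH02Gene12524 9.36 times lower at 20d than at 0d. WIP1 was 8.08 times lower. The germacrene D synthases fell to levels 3.49 to 4.62 times lower than at 0d, with log2 changes of -1.82, -1.89 and -1.49 in PH02Gene40258, PH02Gene48178 and PH02Gene39252.

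The 2 members not called were the auxin carrier PH02Gene14690 and beta-cyanoalanine synthase PH02Gene51392. PH02Gene14690 had 3.07 ± 0.286 FPKM at 20d and 5.19 ± 0.366 FPKM at 0d, a log2 change of -0.44 (SE 0.07, n = 4, edgeR adjusted p = 1.35e-06) that was below the limit on size. PH02Gene51392 had 6.48 ± 7.70 FPKM at 20d and 30.7 ± 14.4 FPKM at 0d, a log2 change of -1.92 (SE 0.89, n = 4, edgeR adjusted p = 0.0601). Without replicate 2 of 20d, its highest library at that time, the change was -3.20 with an edgeR adjusted p of 0.0119. It was also called without replicate 2 of 0d (log2 change -2.21) and without replicate 4 of 6d (-1.91), under total-count scaling (-2.24), with a minimum mean FPKM of 5 (-2.04) and by limma with a pseudocount of 1 (-2.49) or 5 (-1.72).

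**Figure D5:**
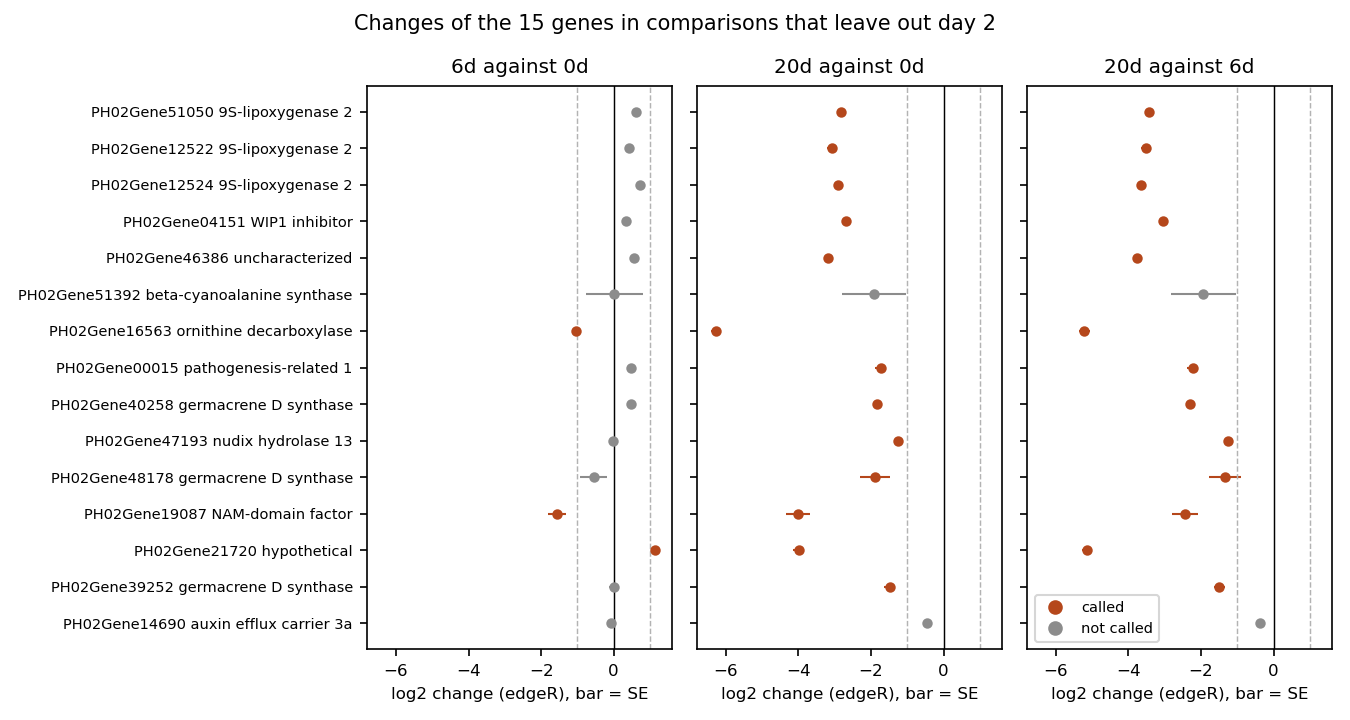
Log2 change of each of the 15 genes at 6d against 0d (left), 20d against 0d (middle) and 20d against 6d (right), from edgeR with n = 4 libraries per time, bars of 1 SE to each side, dashed lines at the limits of -1 and 1, and called genes in orange. Changes at 6d against 0d span -1.57 to 1.14 with a median of 0.34, with 1 gene above 1 and 2 below -1. All but the auxin carrier lie below -1 in both comparisons of 20d, with 13 of the 15 called.

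The decline also appeared between 6d and 20d. Of the 15, 13 were called lower and 0 higher at 20d against 6d, where 14.2% of all tested genes were called lower and 12.7% higher. The median log2 change was -2.44, and that of all genes tested was -0.001. This comparison shares its 20d libraries with the one against 0d, so the 2 counts are not independent. The 3 genes with the smallest adjusted p were PH02Gene46386, PH02Gene21720 and PH02Gene40258. PH02Gene46386 had 1.69 ± 0.225 FPKM at 20d, against 25.3 ± 1.24 FPKM at 6d (log2 change -3.75, SE 0.07, n = 4, edgeR adjusted p = 5.364e-21). PH02Gene21720 had 0.126 ± 0.0267 FPKM at 20d, against 5.09 ± 0.646 FPKM at 6d (log2 change -5.14, SE 0.13, n = 4, edgeR adjusted p = 4.471e-21). PH02Gene40258 had 2.18 ± 0.214 FPKM at 20d, against 11.8 ± 0.216 FPKM at 6d (log2 change -2.29, SE 0.07, n = 4, edgeR adjusted p = 6.245e-20). Again PH02Gene14690 (log2 change -0.37) and PH02Gene51392 (-1.94, edgeR adjusted p = 0.0657, n = 4) were not called, the second of which was called without replicate 2 of 20d (-3.23) or replicate 4 of 6d (-2.32) and by limma with a pseudocount of 1 (-2.08).

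In the annotation, 14 of the 15 genes carried a GO or KEGG term. The 3 lipoxygenases were the only members with the GO term response to wounding, which 187 of the tested genes carry, and with the KEGG pathway of linoleic acid metabolism, which 21 carry. The 3 germacrene D synthases were the only members in sesquiterpenoid and triterpenoid biosynthesis, which 36 carry.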

How the data were processed

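For 16 libraries, the authors deposited FPKM and counts per gene in 1 table, per the file headers, and a value of 0.0001 FPKM was read as 0. The deposited counts were treated as estimated counts: all are whole, yet counts of 4 outnumber any other value above 0 and 35.2% of counts from 1 to 19 are multiples of 4, so 1 fragment may add more than 1 count. Not given in the sources used here are the aligner, counting tool, strand setting and genome build, so positions are those the table lists. Descriptions were present for 49347 genes.

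Members were chosen from FPKM means. Genes whose mean FPKM over all libraries reached 1 (24944) were tested. Their counts were scaled by TMM and the robust quasi-likelihood method of edgeR 4.0.16 (R 4.3.3) was applied with 1 group per time. Adjustment was by Benjamini-Hochberg over all genes tested, and a call needed an adjusted p below 0.05 and an absolute log2 change of at least 1. Tables and figures were made with Python 3.11.15 and pandas 2.3.3. P-values measure the spread between pools of shoots.

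The members and gene lists were chosen with earlier results of these data known. Genes were named by a rule: the 10 members with an informative description and the highest 2d mean, the 2 members of highest ratio in each list holding at least 2, the 3 called members of smallest adjusted p per comparison and direction, the 2 genes nearest the fold limit on each side, and in each list described the gene called higher at 2d with the smallest adjusted p. Genes of the members' families, and members outside the rule, were named after their values were seen. Alternatives were DESeq2 1.42.0, limma 3.58.1 on log2(FPKM + 1) and log2(FPKM + 5), other scalings and filters, fits of the 2 compared groups, a replicate block and leaving out each library.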

Additional observations from a re-analysis of the deposited data

Results flagged for a closer look

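Among the 60 sets of 4 libraries (15 genes at 4 times), 2 held a library far from the other 3 by Dixon's test at the 95% level, which chance alone gives in about 1 of 20 sets. Beta-cyanoalanine synthase PH02Gene51392 had 258 FPKM in replicate 1 at 2d, and the other 3 libraries had 83.4 to 94.1 FPKM. Germacrene D synthase PH02Gene40258 had 2.50 FPKM in replicate 4 at 20d, and the other 3 had 2.04 to 2.10 FPKM.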

How the results depend on the processing

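The number of genes meeting the rule was 36 with a fold limit of 3 and 4 with a limit of 5, and 14 to 16 when each library was left out. At 6d against 0d, 0 members were called higher under total-count scaling and under limma with a pseudocount of 1 or 5, and 0 were called lower under limma with a pseudocount of 5 and 1 without a filter on low values. At 20d against 6d, 8 were called lower under limma with a pseudocount of 5. Of 5631 listed genes that are not members, 819 were called higher and 1281 lower at 2d against 0d. These became 421 higher under limma with a pseudocount of 1, 239 higher and 628 lower with a pseudocount of 5, 471 higher and 616 lower with a minimum FPKM of 5, and 2152 lower without a filter. Leaving out each library gave 813 to 827 higher and 1264 to 1284 lower among them, 13 to 14 members lower in each comparison of 20d, and 1 higher and 2 lower at 6d.

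Signs turned only at 6d against 0d, in 3 genes whose change was near 0. PH02Gene39252 (0.0057) became -0.0043 under median-of-ratios scaling, -0.18 under total counts, -0.0036 in DESeq2, -0.13 and -0.070 under limma with pseudocounts of 1 and 5, -0.12 with a minimum FPKM of 5, and between -0.11 and 0.092 when a library was left out, negative without 0d or 6d replicate 1. PH02Gene47193 (-0.0052) became 0.064 without a filter, and between -0.087 and 0.060 when a library was left out, positive without 0d replicate 2 or 6d replicate 3 or 4. PH02Gene51392 (0.020) became -0.17 under total counts, -0.41 and -0.27 under limma, -0.11 with a minimum FPKM of 5, -0.26 with the replicate block, and between -0.27 and 0.41 when a library was left out, negative without 0d replicate 2 or 6d replicate 1, 2 or 3. The cause was not tested.

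Of 1125 values of single members under these settings, 1078 kept direction and side of the limits, 16 lost a call, 10 gained one and 21 turned. The 10 gains were all in PH02Gene51392, 7 at 20d against 0d (-3.20 to -1.72) and 3 at 20d against 6d (-3.23 to -2.08), under other libraries, scaling, filter or limma. The replicate block left 13 members lower in each comparison of 20d. Same-numbered libraries did not deviate together (correlations -0.046 to 0.061 over 24 pairs), so the numbers were not read as pairs. Low levels at 20d rest on few counts.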

Other observations

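CTP synthases, which make the nucleotide CTP used for nucleic acids and phospholipids, came close to the same time course. Of 4 genes tested, 2 had their highest mean at 2d, where 14.1% of all tested genes did. Their ratios to the highest other mean were 3.70 (PH02Gene14527) and 3.81 (PH02Gene17339). PH02Gene14527 had means of 19.5 ± 0.476 FPKM at 0d, 121 ± 2.09 FPKM at 2d, 32.8 ± 0.998 FPKM at 6d and 20.1 ± 1.09 FPKM at 20d (SD, n = 4 each). PH02Gene07375 had 44.4 ± 1.40, 40.1 ± 1.13, 36.4 ± 1.45 and 25.8 ± 0.630 FPKM at the same times, and PH02Gene22243 was highest at 20d with 18.8 ± 0.784 FPKM. These genes were chosen after their values were seen, so no test is given.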
